A study of Mus musculus with 3 samples.

Results

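The endothelin system was followed across retinal cell classes and 3 ages through 6 genes taken by symbol from the 32285 genes of the count matrices. These were the ligand genes Edn1, Edn2 and Edn3, the receptor genes Ednra and Ednrb, and Ece1, which encodes endothelin converting enzyme 1. Each symbol matched 1 row of the matrices. The retinas came from C57BL/6JRj mice in age groups called young (3 months), adult (12 months) and old (23 months). They had been digested in steps that pelleted the vessels, and the cells had been enriched with magnetic beads for CD31, a surface protein of endothelial cells. Tissue from a pair of mice per age was combined, and each pool gave 1 library of droplet single-cell RNA counts. The labels name no treatment and no genetic change in any group. With 1 library per age, age and preparation cannot be told apart, and no test between ages was made.

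Endothelins are short peptides that act on the cells next to those that secrete them. A preproendothelin is cut by a furin-type protease to big endothelin, which endothelin converting enzyme then trims to the active peptide. The A receptor, the product of Ednra, sits on pericytes and smooth muscle cells and contracts them through Gq signalling. The B receptor, the product of Ednrb, releases nitric oxide when it is on endothelium and clears the peptide from the circulation, and it is also found on mural cells and glia. Endothelin 1 is the main endothelial form, and in the retina it narrows arterioles and acts on pericytes of the capillary bed.

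All 6 genes are protein-coding and were placed on GRCm38 with the GENCODE M21 annotation. Edn1 lies at chr13:42301476-42307990 (plus strand), Edn2 at chr4:120161206-120167360 (plus) and Edn3 at chr2:174760619-174784042 (plus). Ednra lies at chr8:77663031-77724464 (minus), Ednrb at chr14:103814625-103844402 (minus) and Ece1 at chr4:137862237-137965229 (plus), at 103 kb the longest of the 6. The RefSeq promoter windows of the endothelial ligand genes, the 250 bases before each start on GRCm38.p6, are shown because Edn1 and Edn3 turned out to share the endothelial class. They cover chr13:42301226-42301475 and chr2:174760369-174760618, both on the plus strand. Capitals mark CACCC or GGGTG, the core of Krüppel-like factor sites read on either strand, and ACAAT or ATTGT, the core of SOX factor sites.
Edn1: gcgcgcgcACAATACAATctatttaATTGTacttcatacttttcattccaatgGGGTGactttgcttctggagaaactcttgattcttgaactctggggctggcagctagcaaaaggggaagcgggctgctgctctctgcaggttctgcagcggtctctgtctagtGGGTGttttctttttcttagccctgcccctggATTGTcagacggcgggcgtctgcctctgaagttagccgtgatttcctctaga
Edn3: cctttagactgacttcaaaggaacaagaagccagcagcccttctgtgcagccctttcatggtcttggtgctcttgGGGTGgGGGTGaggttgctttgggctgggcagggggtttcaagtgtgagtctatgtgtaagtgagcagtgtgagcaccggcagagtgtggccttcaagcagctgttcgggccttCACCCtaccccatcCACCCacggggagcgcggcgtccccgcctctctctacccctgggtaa
The Edn1 window held 2 matches to CACCC and 4 to ACAAT, and the Edn3 window 4 to CACCC and 0 to ACAAT. Such short motifs are common: of 27025 RefSeq windows of this length, 51.3% held CACCC and 28.3% held ACAAT on either strand. No window of the 6 genes held GATAA, found in 23% of all windows, TGANTCA, found in 6.87%, or ACGTG, found in 16.6%. The motifs were chosen with these sequences and earlier results known, and a match is a description of letters, not of a bound site.

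The young, adult and old matrices held 2491, 3243 and 2751 cell barcodes with 16577026, 19977238 and 17021820 unique molecular identifiers (UMIs, 1 per captured transcript). After the study's limits on detected genes and mitochondrial UMIs and a doublet call, 1706, 1957 and 1697 cells were left, with median UMIs of 6355.5, 5964 and 6296. The doublet call was weak, marking 0.409 to 0.934% of cells. The number of barcodes that a library shared with another was 1, 4 and 3. Classes were rebuilt by clustering and named by markers. The endothelial class held 448 young, 435 adult and 412 old cells, and all 12 endothelial markers were present in it at each age. Droplets with markers of both endothelial cells and pericytes (313, 250 and 222) were kept apart as mixed droplets; a cell pair and a single cell carrying RNA of the other type cannot be told apart there. Their median depths of 13653, 15029.5 and 14779.5 UMIs exceeded those of the endothelial class (5577.5 to 7450) and of pericytes (3979.5 to 4674). A mixed cluster of 67, 64 and 40 droplets had arterial markers and met 5 of 8 pericyte markers under the naming rule. The smooth muscle markers Myh11 and Acta2 were among its top genes, and the part of smooth muscle RNA there was not tested. Levels are given as CPM, the standard unit that corrects UMIs of a gene for all UMIs of the class in that library, with exact 95% Poisson intervals that cover counting error only.

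The members divided between the vessel wall's cell types. Edn1 and Edn3 were found in endothelial cells, Ednra in pericytes and smooth muscle cells, Ednrb mainly in pericytes and mixed droplets, and Ece1 in endothelial cells and pericytes alike with a lower level in cones. Edn2 gave 11 UMIs in all kept cells of the series. Of the 10149 Edn1 UMIs in kept cells, 49.8% lay in the endothelial class and 43.4% in mixed droplets. For Edn3 these shares were 48.7% and 44% of 1255 UMIs. For Ednra, 57.3% of 2393 UMIs lay in mixed droplets, 26.2% in pericytes and 10.9% in smooth muscle cells, against 1.63% in the endothelial class.

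**Figure D1:**
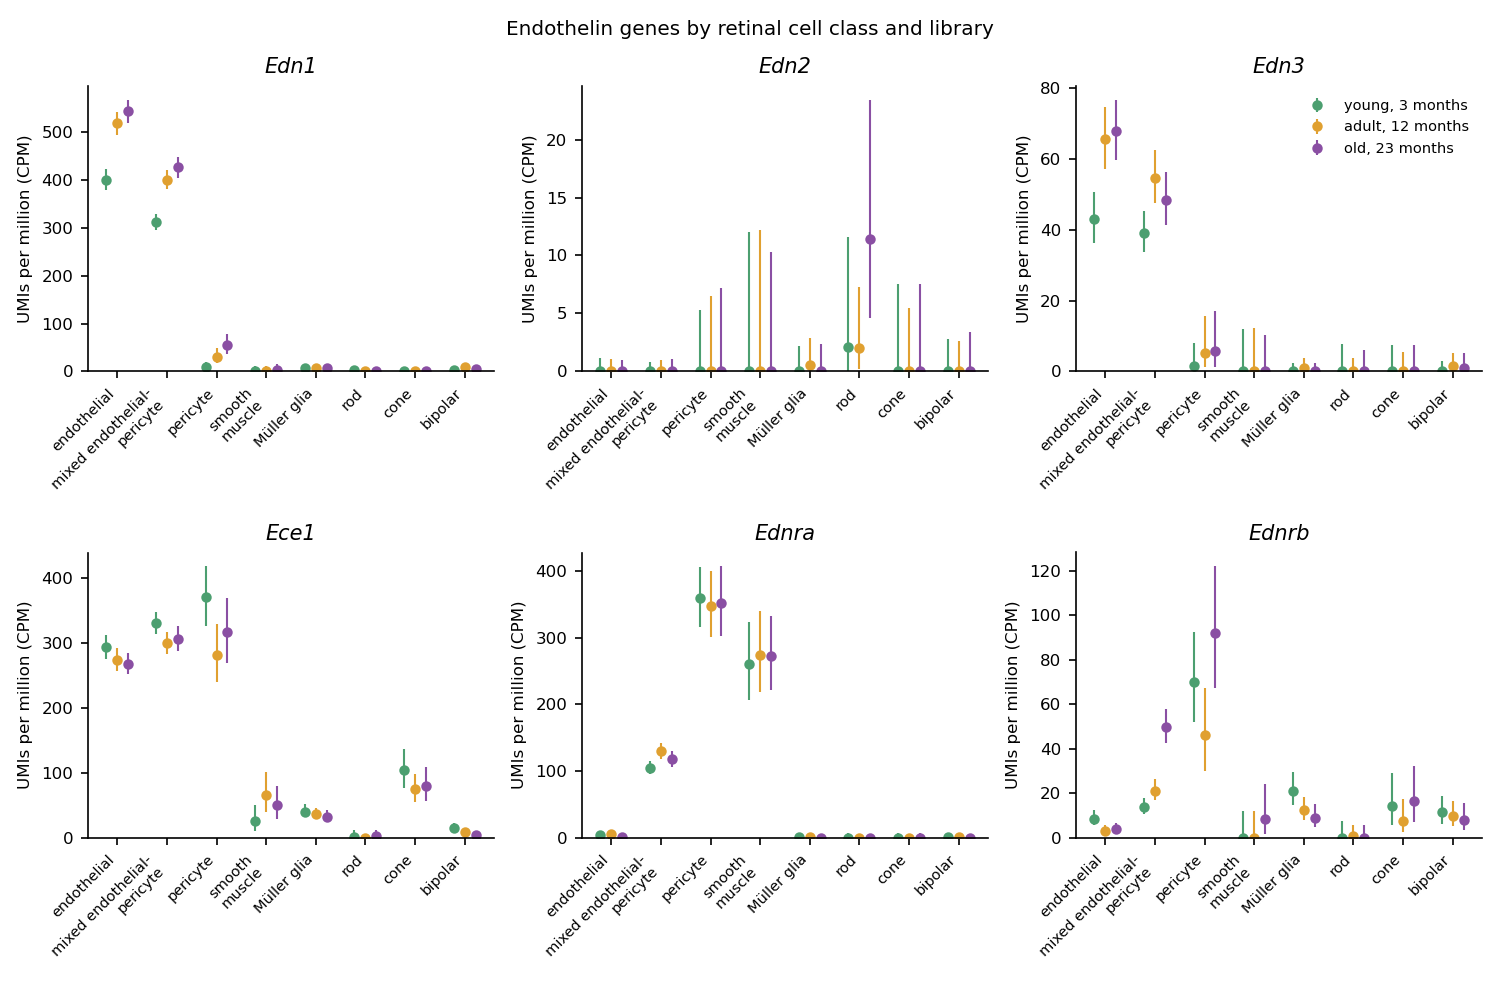
Levels (CPM, vertical axes, each gene on its own scale) of the 6 genes in 8 retinal classes for the young, adult and old library; points are class sums and bars exact 95% Poisson intervals. Edn1 is near 400 to 544 CPM in endothelial cells and at 0 in cones, while Ednra is near 350 CPM in pericytes and at 0 in rods and cones.

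Edn1, which encodes the main endothelial vasoconstrictor peptide, lay almost wholly in endothelial cells and mixed droplets. The endothelial class held 1301 young, 1754 adult and 1996 old Edn1 UMIs. As levels these were 400 CPM (378 to 422), 518 CPM (494 to 543) and 544 CPM (520 to 568). The young level stood below the other two, whose intervals overlapped. The adult level was 1.30 times the young (1.21 to 1.39), the old 1.36 times the young (1.27 to 1.46) and the old 1.05 times the adult (0.983 to 1.12).

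Detection of Edn1 followed the same order. An Edn1 UMI was found in 64.5% of young, 72% of adult and 76% of old endothelial cells, whose median depths were 5577.5, 5979 and 7450 UMIs. With every cell thinned to 2000 UMIs the shares were 41.5, 51.4 and 51.7%. Rods, taken as the class that shows free RNA, had an Edn1 UMI in 0.599, 0 and 0.42% of cells at median depths of 2283, 2425.5 and 2152.5 UMIs, and in 0, 0 and 0.699% after thinning. The 0 of 322 adult rods, taken as fewer than 3 cells, allows a share of cells with a UMI of up to 0.932% at this depth, which does not limit the share of cells that express the gene. Edn1 was uneven among endothelial cells: the median cell carried 1, 2 and 2 UMIs and the highest 31, 39 and 48. The 45, 44 and 42 highest cells held 46.5, 44.2 and 45.8% of the UMIs, so that concentration was alike in the 3 libraries. Without the highest cell of each library the old to young ratio was 1.36 (1.26 to 1.46).

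The class consisted of a capillary cluster of 401, 376 and 331 cells and a smaller arterial cluster of 47, 59 and 81 cells. No venous cluster was set apart, so the capillary cluster may hold venous cells. At a finer clustering, an endothelial cluster of 173, 178 and 165 cells met 6 of 6 capillary and 3 of 6 venous markers. The arterial endothelial cluster stood higher for Edn1 at every age. The arterial cluster had 665 (591 to 745), 813 (737 to 895) and 879 CPM (815 to 946) from young to old. The capillary cluster had 357 (336 to 380), 465 (441 to 491) and 451 CPM (426 to 476). The arterial level was therefore 1.86, 1.75 and 1.95 times the capillary level, and none of the 3 intervals, of which the lowest was 1.56 to 1.95, reached 1. In mixed droplets the arterial-marker to capillary-marker ratio was 1.33 in young and 1.31 in adult, but 0.916 (0.8 to 1.05) in old. Both clusters were named after clustering without the listed genes.

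The arterial share of endothelial cells was 10.5% (7.81 to 13.7), 13.6% (10.5 to 17.1) and 19.7% (15.9 to 23.8) at the 3 ages. That makeup depended on the clustering: at a resolution of 1.0, chosen for this share after seeing the data, the cluster with arterial markers held 23.4, 23.8 and 28.6% of the cells, and the old to young ratio of the share went from 1.87 (1.29 to 2.75) to 1.22 (0.952 to 1.58). Within the capillary cluster the old to young ratio was 1.26 (1.16 to 1.37) and within the arterial cluster 1.32 (1.15 to 1.52). At the resolution of 1.0, where the class held 505 young and 493 old cells and took in most of a cluster otherwise left unnamed, it was 1.3 (1.17 to 1.43) in the arterial cluster and 1.33 (1.21 to 1.47) in all other endothelial cells. Mixed droplets gave 312, 400 and 427 CPM, an old to young ratio of 1.37 (1.27 to 1.47). Their capillary-marker and arterial-marker clusters parted: the ratio was 1.5 (1.38 to 1.63) in the first and 1.03 (0.883 to 1.21) in the second. Summed UMIs of other cell types also differed between the libraries inside the endothelial class. In the old arterial endothelial cluster erythroid markers reached 4294 CPM, against 4.48 and 31 CPM in the young and adult one. Over the whole class Müller glia markers, 8 of 8 above 0 at each age, came to 717, 853 and 1048 CPM, erythroid markers to 555, 199 and 1382 CPM, and pericyte markers to 421, 422 and 371 CPM. Their part in the Edn1 levels was not tested. A limit of fewer than 2 UMIs of mural, Müller glia or photoreceptor markers left few endothelial cells. Their 97 young and 35 old Edn1 UMIs gave a ratio of 1.13 (0.747 to 1.69). Erythroid markers were not part of that limit.

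**Figure D2:**
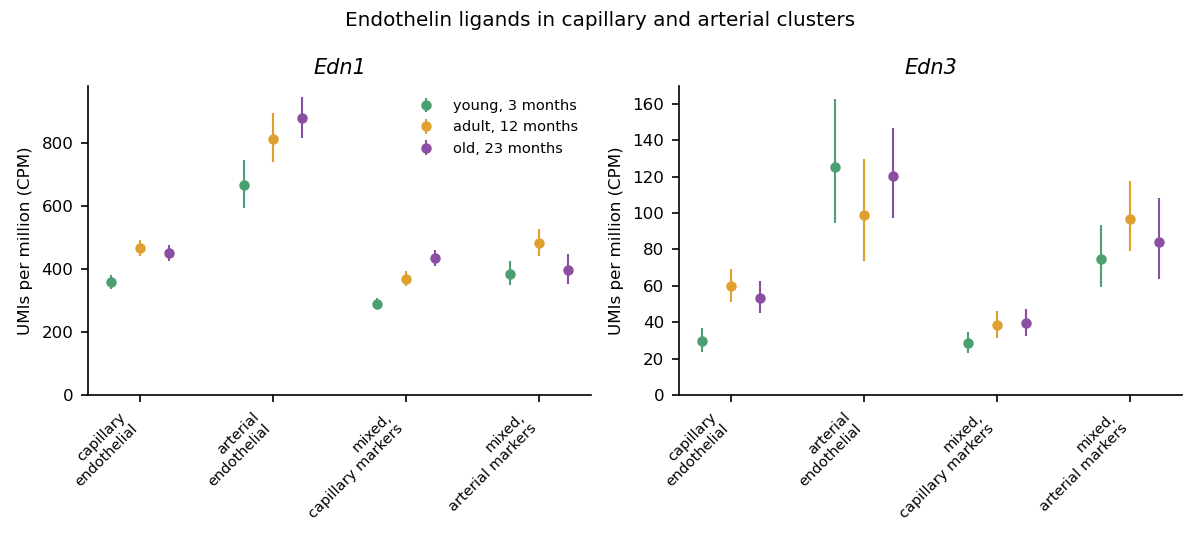
Edn1 (left) and Edn3 (right) in CPM in the capillary and arterial endothelial clusters and in mixed endothelial-pericyte droplets split by the endothelial markers they carry; points are sums for the 3 libraries and bars exact 95% Poisson intervals. Among endothelial clusters the arterial points lie above the capillary points in each library, with Edn1 at 665 to 879 CPM against 357 to 465 CPM; in the old mixed droplets Edn1 has the opposite order, at 398 against 434 CPM.

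Outside the endothelium Edn1 was scarce. Smooth muscle cells held 0, 0 and 1 Edn1 UMIs, cones 0 at every age, and Müller glia 13, 15 and 11, or 7.86, 7.72 and 7.13 CPM. Bipolar cells held 3, 14 and 5, and 10 of the adult 14 came from 1 cell. Pericytes held 6, 17 and 28 Edn1 UMIs, or 8.58 CPM (3.15 to 18.7), 30.1 CPM (17.5 to 48.2) and 54.7 CPM (36.4 to 79.1). As a percentage of the endothelial level of the same library that was 2.15, 5.81 and 10.1%. The summed endothelial markers in pericytes came to 7.36, 7.75 and 10.1% of their endothelial level. The young pericyte share of Edn1 was thus below, and the old share at, the share of endothelial marker RNA in the same cells. The endothelial level exceeded the pericyte level 46.6-fold, 17.2-fold and 9.94-fold in the young, adult and old library.

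Edn3 encodes endothelin 3, the ligand that prefers the B receptor. The endothelial class held 140, 222 and 249 Edn3 UMIs, or 43.0 CPM (36.2 to 50.7), 65.6 CPM (57.3 to 74.8) and 67.8 CPM (59.7 to 76.8). The adult and old levels overlapped and both stood above the young one. An Edn3 UMI was present in 17.4, 27.8 and 28.9% of endothelial cells, and in 4.87, 10.6 and 9.61% at 2000 UMIs per cell. Rods, cones and smooth muscle cells had none in any library, and the 0 of 167 young rods allows a share of cells with a UMI of up to 1.8%. Bipolar cells had 0, 2 and 1 Edn3 UMIs and pericytes 1, 3 and 3.

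The clusters of the endothelial class had unlike Edn3 values across the ages. The capillary cluster held 84 young, 171 adult and 153 old UMIs, or 29.9 CPM (23.9 to 37), 59.6 CPM (51 to 69.3) and 53.3 CPM (45.2 to 62.4). The arterial cluster held 56, 51 and 96 UMIs, or 125 CPM (94.7 to 163), 98.7 CPM (73.5 to 130) and 120 CPM (97.3 to 147). Capillary levels in the adult and old library were 1.99 (1.53 to 2.62) and 1.78 (1.36 to 2.35) times the young level. Arterial ratios were 0.788 (0.528 to 1.17) and 0.958 (0.682 to 1.36), so the arterial intervals included 1; whether the clusters differed in this was not tested. The arterial level was 4.19 (2.93 to 5.95), 1.66 (1.19 to 2.28) and 2.26 (1.73 to 2.93) times the capillary level. Of the arterial young UMIs, 11 came from 1 cell. The mixed droplets kept the arterial order, with 74.8, 96.9 and 83.9 CPM in their arterial-marker cluster against 28.4, 38.3 and 39.3 CPM in their capillary-marker cluster. Their capillary-marker ratio of old to young was 1.38 (1.04 to 1.84), an interval that overlapped that of the capillary cluster.

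Edn3 and Edn1 were often in the same cells. Of endothelial cells with an Edn3 UMI, 76.9% of the young, 80.2% of the adult and 89.1% of the old also carried Edn1, against 61.9, 68.8 and 70.6% of the cells without Edn3. The Edn3 cells were deeper, with medians of 8472.5, 10172 and 9633 UMIs against 5322, 5200 and 6693, and the part of depth in this was not tested. Edn3 UMIs per Edn1 UMI were 0.0837, 0.128 and 0.118 in the capillary cluster and 0.189, 0.121 and 0.137 in the arterial cluster. The Edn3 share of ligand UMIs was highest in young arterial cells, at 15.9% (12.2 to 20.1). It was lowest in young capillary cells, at 7.72% (6.20 to 9.47). Both intervals overlapped that of the old cells of the same cluster, at 12.0% (9.85 to 14.5) and 10.6% (9.04 to 12.3).

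Edn2, the endothelin of gut and ovary that photoreceptors are known to make after injury, gave 1, 3 and 7 UMIs in young, adult and old kept cells. Rods held 1, 2 and 7 of these, and 1 adult UMI was in a Müller cell. The old rod level was 11.4 CPM (4.58 to 23.5), from 6 of 238 cells or 2.52% (0.93 to 5.41). Young and adult rods had 2.08 and 2.01 CPM, with intervals of 0.0526 to 11.6 and 0.243 to 7.25 that overlapped the old one. Of the old UMIs, 6 were in the rod cluster led by Rp1, Pde6b and Samd11, which had 1 in the young and 1 in the adult library. Endothelial cells, pericytes, cones and bipolar cells had none, and 3 counts in the old endothelial class would make 0.817 CPM. Over all barcodes, before any limits, the libraries held 2, 3 and 15 Edn2 UMIs.

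Ece1, the protease that makes the active peptide, was found in both cell types of the capillary wall. The endothelial class held 955 young, 926 adult and 984 old UMIs, or 293 CPM (275 to 313), 274 CPM (256 to 292) and 268 CPM (252 to 285). Pericytes held 259, 159 and 162 UMIs, or 371 CPM (327 to 418), 282 CPM (240 to 329) and 317 CPM (270 to 369). The pericyte level was above the endothelial level in the young library, and the intervals of the adult and old library overlapped. Mixed droplets lay between or beside them, at 331, 300 and 306 CPM.

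Across the ages, Ece1 stayed within 1.5-fold in the vascular classes other than smooth muscle. The endothelial old to young ratio was 0.914 (0.835 to 0.9998), the pericyte ratio 0.854 (0.698 to 1.04) and the mixed-droplet ratio 0.927 (0.856 to 1.00). Adult to young ratios were 0.933 (0.851 to 1.02) in endothelial cells and 0.760 (0.620 to 0.930) in pericytes. Arterial cells had 396 (340 to 459), 304 (258 to 355) and 327 CPM (288 to 369), and capillary cells 277, 268 and 252 CPM. The arterial level was 1.43 (1.21 to 1.69), 1.13 (0.949 to 1.35) and 1.30 (1.12 to 1.5) times the capillary level, so the adult interval alone included 1. In mixed droplets the order was the other way, with arterial-marker to capillary-marker ratios of 0.913 (0.804 to 1.03), 0.826 (0.719 to 0.946) and 0.965 (0.824 to 1.12). In the arterial cluster the old to young ratio was 0.824 (0.679 to 1.00). Thinning to 2000 UMIs gave 41.5, 40.5 and 37.2% of endothelial cells with an Ece1 UMI, from unthinned shares of 73.2, 72.9 and 81.1%.

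Of rods, cones and bipolar cells, cones had the most Ece1. They held 51, 50 and 39 UMIs, or 104 CPM (77.2 to 136), 74.6 CPM (55.4 to 98.3) and 79.9 CPM (56.8 to 109). An Ece1 UMI was found in 45.7, 36.3 and 36.6% of cones and, after thinning, in 20.3, 11.6 and 11.9%. Rods from the same tissue held 1, 0 and 2 UMIs, in 0, 0 and 1.4% of cells after thinning. The cone level was 35.4, 27.3 and 29.8% of the endothelial level, where endothelial markers in cones reached only 0.344, 0.175 and 0.223% of theirs. Erythroid markers in the cone class came to 15057 CPM in the young library against 31.3 and 22.5 CPM in the others, and their part in the cone values was not tested. Müller glia stood lower than cones, at 40.5, 36.5 and 32.4 CPM, and bipolar cells lower still, at 15.2, 9.18 and 4.55 CPM. Smooth muscle cells had 8, 20 and 18 UMIs, or 26.0, 66.0 and 50.1 CPM, well under the pericyte level.

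Ednra, the contractile A receptor, was a gene of mural cells. Pericytes held 251, 196 and 180 UMIs, or 359 CPM (316 to 406), 347 CPM (300 to 399) and 352 CPM (302 to 407). The 3 levels nearly coincided, with an old to young ratio of 0.980 (0.804 to 1.19) and an adult to young ratio of 0.967 (0.798 to 1.17). Smooth muscle cells had 8 of 8 smooth muscle markers above 0 at each age. They held 80, 83 and 98 Ednra UMIs, or 260 CPM (206 to 324), 274 CPM (218 to 339) and 273 CPM (222 to 333), again nearly level. Each smooth muscle value was below the pericyte value of its library. The pericyte level was 1.38 (1.07 to 1.80) times the smooth muscle level for young, 1.27 times for adult (0.976 to 1.66) and 1.29 times for old cells (1.002 to 1.67), so the adult interval alone included 1.

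An Ednra UMI was found in 63.5, 57.3 and 73.3% of pericytes, whose median depths were 3979.5, 3994 and 4674 UMIs, and in 39.5, 47.7 and 54% after thinning. In no rod or cone of any library was there one, and bipolar cells held 1, 2 and 0. Endothelial cells held 14, 19 and 6 Ednra UMIs, or at most 5.61 CPM. Mixed droplets had 104 CPM (95.2 to 114), 130 CPM (119 to 142) and 118 CPM (107 to 130), with an old to young ratio of 1.13 (0.984 to 1.29). Set against the pericyte markers they carry, mixed droplets held 14.2, 17.65 and 14.5 Ednra UMIs per 1000 pericyte-marker UMIs, near the 17.2, 19.45 and 17.3 of pericytes.

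Ednrb, the B receptor, had the largest old to young ratio of the members with at least 50 UMIs in a class, and had it in mixed droplets. These held 62 young, 82 adult and 170 old UMIs, or 13.8 CPM (10.6 to 17.7), 21.2 CPM (16.9 to 26.3) and 49.8 CPM (42.6 to 57.9). The old level was 3.61 times the young (2.68 to 4.91), and the adult level 1.54 times the young (1.09 to 2.17). The intervals of the old library and of the other libraries did not overlap. An Ednrb UMI was found in 13.4, 19.6 and 34.7% of mixed droplets and in 3.51, 6.8 and 8.11% after thinning, where the old to young ratio of levels was 2.47 (1.16 to 5.50) from 21 and 12 UMIs. The highest droplet held 6, 7 and 12 UMIs, and without it in each library the ratio was 3.72 (2.72 to 5.14).

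The mixed droplets with capillary markers supplied most of these UMIs. They held 46, 61 and 148 Ednrb UMIs, or 13.3 CPM (9.77 to 17.8), 21.9 CPM (16.7 to 28.1) and 54.4 CPM (46.0 to 63.9), an old to young ratio of 4.08 (2.91 to 5.80). Those with arterial markers held 16, 21 and 22 UMIs, or 15.3, 19.6 and 31.8 CPM, a ratio of 2.07 (1.04 to 4.22). They also carried smooth muscle genes, whose part in their receptor values was not tested. The ratios of Ednra were 1.25 (1.06 to 1.47) in the capillary-marker droplets and 0.928 (0.717 to 1.20) in the arterial-marker ones. The Ednrb share of receptor UMIs in mixed droplets was thus 11.7% (9.07 to 14.7), 14.1% (11.3 to 17.2) and 29.7% (26.0 to 33.7). This share compares captured UMIs of 2 genes and is read across libraries only, not as a ratio of receptors.

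Marker RNA in the mixed endothelial-pericyte droplets gives the surroundings of that result. Pericyte markers, 8 of 8 above 0 at each age, came to 7380, 7346 and 8127 CPM, and Ednrb UMIs per 1000 pericyte-marker UMIs were 1.87, 2.89 and 6.13. Müller glia markers came to 562, 632 and 668 CPM and astrocyte markers, of which 3, 3 and 2 of 5 were above 0, to 1.56, 1.81 and 1.17 CPM. Erythroid markers were at 443, 415 and 1702 CPM, so the old droplets also carried more erythroid RNA, whose part in the result was not tested.

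Pericytes outside the mixed droplets showed a smaller difference in Ednrb. They held 49, 26 and 47 UMIs, or 70.1 CPM (51.9 to 92.7), 46.1 CPM (30.1 to 67.5) and 91.8 CPM (67.5 to 122). The adult library was lowest and the old highest, at 1.99 times the adult, while the old to young ratio of 1.31 had an interval (0.859 to 2) that included 1. The adult to young ratio of 0.657 (0.392 to 1.08) also included 1. Per 1000 pericyte-marker UMIs the counts were 3.355, 2.58 and 4.51, which made the adult to young ratio 0.769 (0.459 to 1.26). An Ednrb UMI was found in 14.1% (9.26 to 20.3), 13% (7.74 to 20) and 27.6% (19.3 to 37.2) of pericytes, and in 9.87, 10.1 and 13.8% after thinning. Of the pericytes with Ednrb, 66.7% of the young, 64.7% of the adult and 86.2% of the old also carried Ednra, against 63, 56.1 and 68.4% of the rest. The young and old pericytes with Ednrb were deeper, with medians of 5324.5 and 5350 UMIs against 3827.5 and 4365, and the adult ones alike, at 3994 against 3964. Smooth muscle cells held 0, 0 and 3 Ednrb UMIs, the 3 in 1 cell, beside their 80 to 98 Ednra UMIs.

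**Figure D3:**
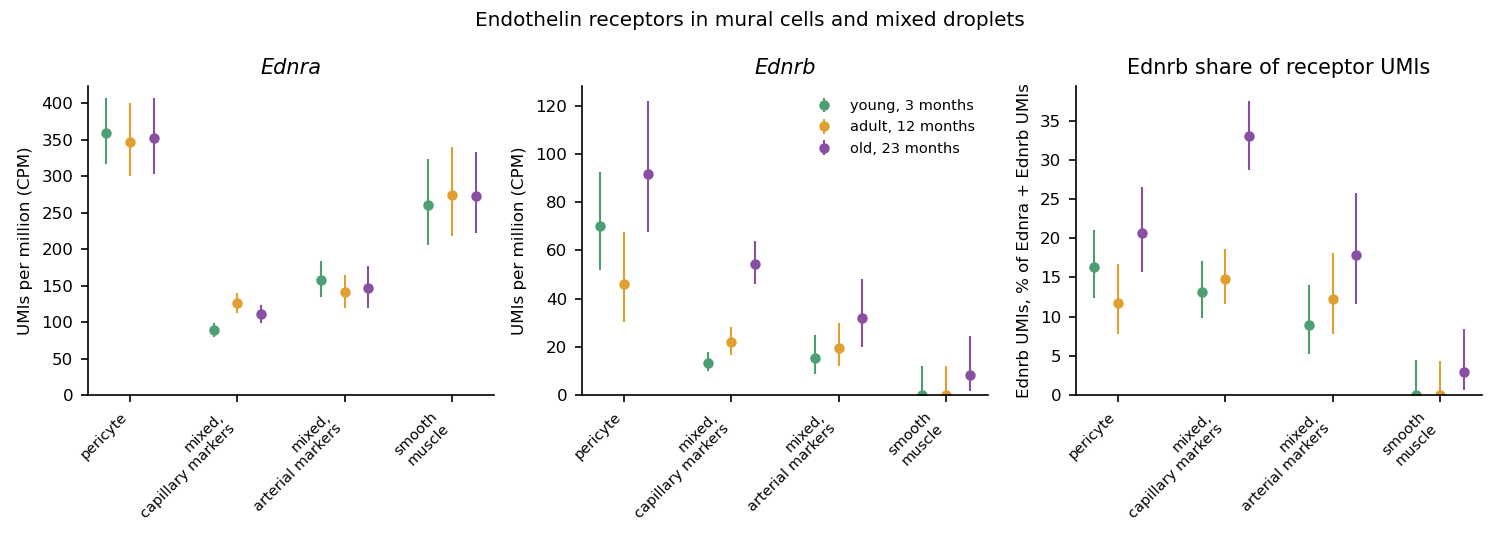
Ednra and Ednrb in CPM and the Ednrb share of the summed UMIs of both receptors (%) in pericytes, mixed droplets split by endothelial markers, and smooth muscle cells; points are sums for the 3 libraries and bars exact 95% intervals (Poisson for levels, Clopper-Pearson for shares). The old mixed droplets with capillary markers reach 54.4 CPM and a share of 33%, against 13.3 CPM and 13.1% in the young library.

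In endothelial cells Ednrb was near the limit of detection. The class held 28, 11 and 15 UMIs, of which the capillary cluster had 10, 9 and 11 and the arterial cluster 18, 2 and 4. The young arterial UMIs lay in 6 cells, and 1 cell held 10 of them. The old to young ratio of the whole class was 0.475 (0.236 to 0.920), but 1.08 (0.415 to 2.83) in the capillary cluster alone and 0.639 (0.288 to 1.38) without the highest cell of each library. An endothelial difference in Ednrb was therefore not detectable at this depth outside those few young cells.

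Müller glia, another cell type known to carry the B receptor, held 35, 24 and 14 Ednrb UMIs, or 21.2 CPM (14.7 to 29.4), 12.3 CPM (7.91 to 18.4) and 9.08 CPM (4.96 to 15.2). The old level was 0.429 times the young (0.213 to 0.818), but 0.907 (0.393 to 2.08) under stricter limits on genes and mitochondrial UMIs, which left 13 old and 14 young UMIs. Astrocyte markers in this class came to 467, 86.4 and 91.4 CPM, with Gfap at 161, 31 and 29 UMIs, Pax2 at 18, 0 and 0, Pdgfra at 142, 5 and 0, and S100b at 452, 132 and 112. Cells with at least 10 UMIs of astrocyte markers numbered 7, 2 and 1 and held 15, 0 and 0 of the Ednrb UMIs. Without them Ednrb was at 13.0 CPM (7.93 to 20), 12.5 CPM (8.02 to 18.6) and 9.16 CPM (5.01 to 15.4), and the 3 intervals overlapped; the ratios to young became 0.964 (0.511 to 1.84) in adult and 0.706 (0.33 to 1.47) in old. Leaving out cells with 2 or more astrocyte-marker UMIs gave 0.816 (0.399 to 1.66) and 0.524 (0.198 to 1.25). After thinning, 2.34, 1.01 and 0.602% of Müller cells had an Ednrb UMI, from unthinned shares of 12.8, 8.88 and 5.34%.

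Among neurons, Ednrb was found in a bipolar cluster led by Cck, Reln and Vsx1, a gene of cone bipolar cells. That cluster held 15, 13 and 9 UMIs, or 45.6, 38.8 and 34.6 CPM, while the cluster led by Pcp2, Prkca and Trpm1, genes of rod bipolar cells, held 0, 1 and 0. The lower bounds of the ratio between the clusters were 7.46, 4.04 and 4.52, so all 3 libraries had the same order. Its own old to young ratio of 0.759 (0.293 to 1.85) included 1. Cones held 7, 5 and 8 Ednrb UMIs, or 14.2, 7.46 and 16.4 CPM, and rods 0, 1 and 0.

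**Figure D4:**
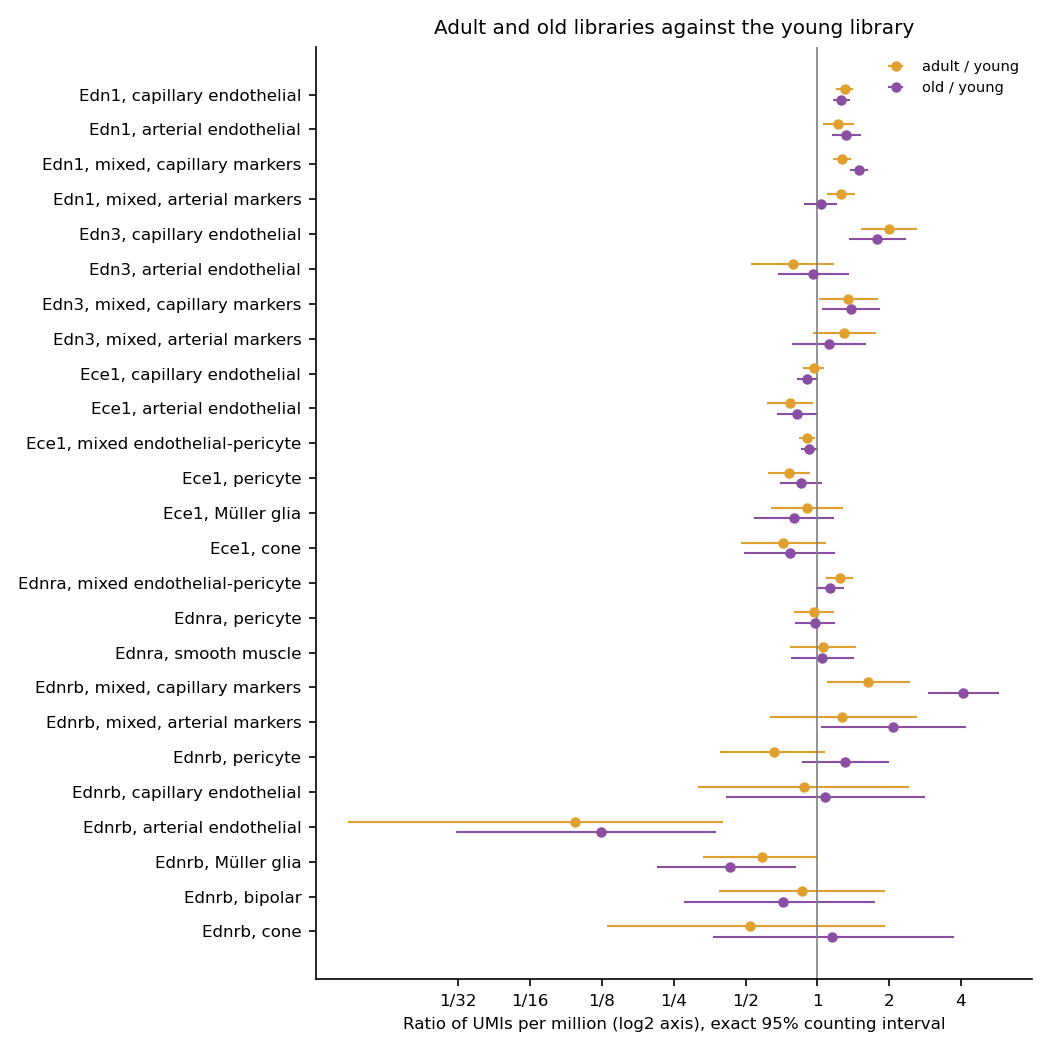
Ratio of the CPM of the adult and the old library to the young library (log2 axis) for each member and class or cluster with enough UMIs; bars are exact 95% conditional intervals and the vertical line marks 1. Ednrb in mixed droplets with capillary markers lies at 4.08 for old against young, while Ednra in pericytes and in smooth muscle cells lies at 0.980 and 1.05.

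Each member was also read against all genes of the same cells, calling a gene that had at least 50 UMIs in both libraries together and a ratio of 1.5 or more in either direction. The members with fewer UMIs, Edn2 in every class among them, could not be called. In endothelial cells, Edn3 was the 1 member of 3 called higher in old than in young, where 5.02% of 8988 genes were called higher and 3.06% lower. That call was lost with mixed droplets counted in the class, at 1.43 (1.23 to 1.66), and the mixed droplets themselves gave an Edn3 ratio of 1.23 (0.991 to 1.53). Edn3 was also the 1 of 3 higher in adult than in young, where 2.75% of genes were higher and 1.5% lower. In mixed droplets Ednrb was the 1 of 5 called higher in old, against 3.58% of 9814 genes higher and 3.1% lower, and the 1 of 5 higher in adult, against 2.42%. In pericytes 0 of 3 members were called between old and young, where 7.91% of genes were higher and 4.28% lower. Ednrb was the 1 of 3 called lower in adult than in young pericytes, against 3.59% of genes, with the interval and the value per pericyte marker given above, under which it would not have been called. In Müller glia 0 of 1 member was called between old and young, where 5.06% were higher and 3.6% lower, and 1 of 2, Ednrb, was lower in adult at 0.584 (0.332 to 1.01), against 3.49%. Without the cells with 10 or more astrocyte-marker UMIs that ratio of 0.964 was not called. The median log2 ratio of old to young over all genes, which scaling to the class total keeps near 0, was 0.03 in endothelial cells, 0.02 in mixed droplets, 0.07 in pericytes, 0.08 in smooth muscle cells and 0.03 in Müller glia. Edn1, at a log2 ratio of 0.44, stood above the endothelial median without passing the 1.5-fold limit.

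Of 48 further genes of endothelin processing, receptor signalling, the opposing nitric oxide and prostacyclin routes, Edn1 regulators and other vasoactive peptides, 38 had enough UMIs in endothelial cells. Old exceeded young by 1.5-fold in 3 of them, and 1 was lower, beside the 5.02 and 3.06% of all genes given above. The 3 higher genes were Adm, which encodes the vasodilator adrenomedullin, at 58.8 against 23.7 CPM (ratio 2.49, 1.91 to 3.27), Ptgis, the prostacyclin synthase gene, at 2 (1.29 to 3.16), and Npr1, a natriuretic peptide receptor gene, at 1.56 (1.09 to 2.25). The lower one was Gucy1b1, a subunit gene of the nitric oxide receptor guanylyl cyclase, at 0.659 (0.451 to 0.957). Its endothelial level of 21.5 young and 14.2 old CPM was 2.54 and 1.68% of its pericyte level, where summed pericyte markers in endothelial cells came to 2.01 and 1.82% of theirs, so the Gucy1b1 value stood near the level of carried pericyte RNA. Against the young library the adult one had Adm at 1.87 (1.41 to 2.50), Ptgis at 1.55 (0.972 to 2.51) and Arrb1, an arrestin gene, at 1.51 (1.00 to 2.31). Npr3, the gene of a clearance receptor, was at 0.481 (0.288 to 0.784). That made 3 of 37 higher and 1 lower in adult, where 2.75% of all genes were higher and 1.5% lower. In the mixed droplets Npr1 stood at 1.48 (1.04 to 2.12) in old against young, but Adm at 0.785 (0.580 to 1.06), opposite in direction to the endothelial class. There 0 of 40 genes passed 1.5-fold either way, where 3.58% of all genes were higher and 3.1% lower.

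The genes that process or regulate endothelin 1 in endothelial cells lay closer to 1. Furin, which encodes the protease that cuts preproendothelin, was at 63.7 against 49.8 CPM in old and young (1.28, 1.04 to 1.57), and Pcsk7, a related convertase gene, was at 0.755 (0.575 to 0.990). Of the regulators, Hif1a, the hypoxia factor gene, was at 1.28 (1.13 to 1.45), Klf2, the gene of a factor induced by blood flow, at 1.11 (1.07 to 1.14), and Foxo1 at 0.758 (0.652 to 0.880). Among genes downstream of the receptors, Itpr1, a calcium release channel gene, was at 0.719 (0.607 to 0.852) and Itpr3 at 1.31 (1.05 to 1.62). The median log2 ratio of the 19 receptor signalling genes was -0.01, and that of the 6 Edn1 regulators 0.03. The 6 nitric oxide and prostacyclin genes had a median of -0.48, to which 4 genes with a higher level in pericytes contributed: Gucy1a1 and Gucy1b1 stood at 1.53 to 2.63% of their pericyte level over the 3 libraries, and Prkg1 and Pde5a at 5.37 to 13.1%. Nos3, the endothelial nitric oxide synthase gene, was at 183 CPM in young and 186 CPM in old, and Ptgis at 9.52 and 19.1 CPM.

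Pericytes and smooth muscle cells, the cells that carry the A receptor, had 21 and 18 of these genes with enough UMIs. In pericytes 4 were higher in old by 1.5-fold and 2 lower, where 7.91% of all genes were higher and 4.28% lower. Rock2, a kinase gene of the contractile response, was at 281 against 176 CPM (1.60, 1.25 to 2.05), Grk2, a receptor kinase gene, at 1.63 (0.936 to 2.86), Klf4 at 1.96 (1.38 to 2.81) and Klf2 at 1.60 (1.22 to 2.09). Pericyte Klf2 was 6.52% of its endothelial level in young and 9.40% in old, below the 7.36 and 10.1% of summed endothelial markers in the same cells, so it could not be told from carried endothelial RNA. Klf4 was at 8.26 and 16.2% of its endothelial level, above those shares. The lower pair were Itpr2 at 0.520 (0.342 to 0.775) and Prkg1, the gene of the relaxing cGMP kinase, at 0.621 (0.443 to 0.861). In smooth muscle cells, where 9.06% of all genes were called higher and 4.91% lower, 2 were higher and 0 lower, namely Ptgis at 2.02 (1.33 to 3.14) and Klf2 at 2.47 (1.93 to 3.19). There Klf2 was 11.9 and 26.6% of its endothelial level, against 1.12 and 1.4% for endothelial markers. In Müller glia 0 of 22 were higher and 2 lower, against 5.06 and 3.6% of all genes, Klf4 at 0.646 (0.450 to 0.918) and Calcrl, part of the adrenomedullin receptor, at 0.619 (0.367 to 1.03). Müller Klf4 was 5.39 and 3.48% of its endothelial level, under the 8 and 7.97% of endothelial markers there. Without the Müller cells with 10 or more astrocyte-marker UMIs (7 young and 1 old), Klf4 was at 0.608 (0.424 to 0.864) and Calcrl at 0.583 (0.345 to 0.965).

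Of 13 genes that respond to tissue dissociation, 0 were called in endothelial cells between adult and young, where 2.75% of all genes were higher and 1.5% lower. Between old and young 0 were higher and 3 lower, against 5.02 and 3.06% of all genes, with a list median log2 ratio of 0.11 beside 0.03 over all genes. The lower ones were Hspa1b at 0.299, Fosb at 0.505 and Hspa1a at 0.587. In pericytes 1 was higher in old, Atf3 at 2.99 (1.61 to 5.78), and 4 were lower, Fosb at 0.424 among them, against 7.91 and 4.28% of all genes. In adult pericytes 3 of 12 were lower than in young, against 3.59%. In mixed droplets, where Ednrb differed most, 0 of 13 were higher in old and 3 lower, against 3.58 and 3.1% of all genes, namely Hspa1b at 0.514, Fosb at 0.550 and Hspa1a at 0.634. In smooth muscle cells 2 of 12 were higher in old, Atf3 at 2.39 and Zfp36 at 1.69, against 9.06%. Several endothelin regulators, such as Klf2 and Klf4, also respond to handling, and the part of dissociation in the member values was not tested.

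The genes with profiles most like each member were taken over 30 profiles, 10 classes or clusters in each of 3 libraries, among 13113 genes. The profiles of 1 library share its preparation, so the coefficients are descriptions. Edn1 was closest to Gata2 and Sox18 (r = 0.991 each), Itga5, Mecom and Ly6c1 (0.990 each), all near its endothelial pattern. Edn3 was closest to Mall (0.989), St8sia6 (0.988), Dll4, the gene of an arterial Notch ligand (0.987), Mmrn2 (0.986) and Stmn2. Ednra was closest to Prrx1, Slc38a11 and Rbms3 (0.995 each), Foxs1 and Cspg4 (0.993 each), the last the gene of the pericyte marker NG2. Ednrb had no close neighbour, its highest being Steap4 (0.810), and Ece1 lay between, with Elk3 at 0.933. Between members the coefficient was 0.973 for Edn1 and Edn3, 0.780 for Edn1 and Ece1, 0.479 for Ednra and Ednrb and 0.126 for Edn1 and Ednra.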

How the data were processed

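The authors deposited raw counts of UMIs by gene and cell barcode for 3 libraries (10x single cell 3' v3.1), made with Cell Ranger 6.1.2 on mm10 per the submitters' processing notes. Barcodes outside the study's limits were still present. From there, cells with 500 to 6000 genes and 1 to 20% mitochondrial UMIs were kept. Doublets were called per library with Scrublet in scanpy 1.11.5, in place of the study's DoubletFinder. Cells were integrated and clustered in Seurat 5.3.0 (R 4.3.3; 2000 features, 30 principal components, resolution 0.5). Genes of the lists examined were kept out of the features.

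Clusters were named from listed markers: a marker counted when found in 20% of the cells at 25% or more of its highest cluster level, a name needed 3 markers, and 50% of the markers of more than 1 class made a cluster mixed. These naming thresholds were chosen with the clusters in view. A cluster with endothelial markers and few UMIs was left unnamed. The study states fewer cells than the barcodes deposited, and its own names for cells were not used here, so classes may differ from the study's.

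UMIs of a class were summed within each library and given as CPM. Classes needed 30 cells in each library. Intervals at 95% are exact (Poisson, conditional for ratios, Clopper-Pearson for shares; scipy 1.17.1) and cover counting error only. No p-value was computed, because each age had 1 library. A count of 0 is given with the level of 3 counts. Shares of cells were repeated with cells thinned to 2000 UMIs, shallower cells left out. The intervals were tested on simulated Poisson counts of class sums. Such counts hold no unevenness between cells or mice, so that test speaks only to counting error.

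Named genes were the 6 members, the 3 genes with the largest ratio change per list, class and contrast with at least 50 UMIs, of which the ones discussed are given, and the 5 genes most like each member with at least 100 UMIs (Pearson correlation of log2(CPM + 10)). Members, lists and motifs were chosen with earlier results of these data known. Positions came from GENCODE M21 through the gene identifier, and promoter windows from RefSeq (6 of 6 members matched). Alternatives covered depth, limits, weights of cells, free RNA, clustering and mixed droplets.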

Additional observations from a re-analysis of the deposited data

Results flagged for a closer look

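A few values came from droplets outside the classes compared above or differed between classes. Mixed endothelial-erythroid droplets (22 young, 24 adult and 19 old), which were in no comparison, had more Edn1 than the young ones beyond counting error in the adult (ratio 1.65) and the old library (2.26). The same droplets had more Edn3 in the adult (4.06) and old library (8.97), from 3, 13 and 22 UMIs, and more Ednra (1.96) and Ednrb (2.68) in the adult library. The old ones went the other way for the receptors, at 0.556 (0.235 to 1.22) times the young level for Ednra and 0.699 (0.15 to 2.75) for Ednrb, and at 0.284 (0.128 to 0.57) and 0.261 (0.0649 to 0.78) times the adult level. The unnamed cluster with endothelial markers had an old to young ratio of 1.57 for Edn1 and of 6.09 for Edn3, the latter from 2 and 16 UMIs. Ece1 in the adult microglia was 6.8 times the young level, from 25 UMIs in 5 of 30 cells and too few young cells for a class. Ednrb in old against young libraries differed in direction between classes, at 3.61 in mixed endothelial-pericyte droplets against 0.475 in the endothelial class and 0.429 in Müller glia. Both lower values changed with the cells counted: the endothelial ratio was 1.08 in the capillary cluster and 0.639 without the highest cell of each library, and the Müller ratio 0.907 under stricter limits on cells and 0.706 (0.33 to 1.47) without cells with 10 or more astrocyte-marker UMIs. The difference in direction was not tested, since each class has 1 library per age.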

How the results depend on the processing

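No paired analysis was possible because each age has 1 library, and no replicate could be left out. Under the alternatives run, 65 values stayed within the counting error of the reported value (counts of genes within 1.5-fold), and 16 did not. Among the alternatives was the subtraction of free RNA by rods. Rods carried little endothelial marker RNA, so that setting could move vascular values little. Of 73 ratios, 64 stayed on the same side of 1 and 9 did not; the cause was not tested in any. Among the 9 were 4 of pericyte Ednra (0.980), at 1.17 after thinning, 1.03 without marker-carrying cells, 1.02 as the mean over cells and 1.07 with mixed droplets, all within its interval that included 1. Endothelial Edn1 (old to young, 1.36) was 1.13 without cells carrying markers of another class and 1.26 in the capillary cluster alone. Endothelial Ece1 (0.914) was 0.829 after thinning, crossed 1 to 1.13 without marker-carrying cells and was 0.824 in the arterial cluster. Endothelial Ednrb (0.475) changed direction to 1.06 after thinning (3 UMIs in each library), 2.25 with mixed droplets counted in and 1.08 in the capillary cluster, and was 0.124 in the arterial cluster. Pericyte Ednrb (1.31) was 2.58 with mixed droplets counted in. Müller Ednrb (0.429) was 0.907 under stricter limits on cells, from 13 and 14 UMIs, and 0.524 and 0.706 without cells with 2 or 10 or more astrocyte-marker UMIs. The arterial share (old to young, 1.87) was 1.22 at the finer clustering. Endothelial Edn3 (1.58) was 2.17 after thinning, 1.43 with mixed droplets counted in and changed direction to 0.958 in the arterial cluster; Ednrb in mixed droplets (3.61) was 2.47 after thinning. At 20 UMIs in place of 50, the listed genes higher in old Müller glia went from 0 to 2. Some member calls changed too. In endothelial cells Ednra, at 0.380 (0.120 to 1.05), and Ednrb became 2 of 5 called lower, where 602 of 10659 genes were lower. In pericytes Edn1, at 6.37 (2.59 to 18.8), became 1 of 4 called higher, where 972 of 7184 genes were higher. In Müller glia Ednrb became 1 of 3 called lower, where 747 of 10306 genes were lower. Leaving out the highest cell, the single clusters, the unnamed cluster, the astrocyte-marker cells, the finer clustering for the arterial share and all settings for Edn3 and mixed-droplet Ednrb were chosen after seeing the data. Endothelial and pericyte values without marker-carrying cells rest on few UMIs, and for Ednrb that setting left no usable value. The markers used in it were those of endothelial, mural, Müller glia and photoreceptor cells, and did not include erythroid ones. Ednrb outside mural and mixed droplets, Edn2 and the arterial cluster are limited by depth.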

Other observations

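A single young droplet with lens markers held 16 Edn3 UMIs, more than any endothelial cell, whose highest was 11. The 37 adult lens-marker droplets held 30 Ece1 and 6 Edn1 UMIs. The old retinal pigment epithelium cluster, with 53 cells against 1 young and 7 adult cells, held 7 Edn1 UMIs, all in 1 cell. These clusters were too small in at least 1 library to be compared.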
